A study of Mus musculus with 4 samples.

Results

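Hspa5, Hsp90b1, Calr, Canx, Hyou1, Dnajb11, Dnajc3, Sdf2l1, Manf, and Creld2 encode proteins that fold, hold, or quality-check new proteins in the ER, and their RNA was followed in large intestinal ILC2s with and without deoxycholic acid (DCA), a secondary bile acid made by gut bacteria. They are picked out by symbol, with no threshold on their values. All 10 symbols were found once each among the 27179 genes of the count table, and all 10 passed the filter, a mean of 1 CPM or more over the libraries (CPM is the count scaled to library size). ILC2s, innate lymphocytes that lack antigen receptors and release IL-5, IL-13, and amphiregulin, were sorted as CD45.2+ Lin- CD127+ KLRG1+ cells from the large intestine of WT C57BL/6 mice, and were grown for 5 days with 4 cytokines (IL-33, IL-25, IL-7, and IL-2, each at 10 ng/mL) before treatment. No transgene or deletion was carried by any library, and the cytokines were common to both groups. The methods of the study give an age of 6 to 8 weeks for C57BL/6J mice and, elsewhere, a wider range for all mice. They name both sexes for C57BL/6J mice in one place and males alone in another, and neither age nor sex is given per library. In the RNA-Seq experiment, 2 libraries came from vehicle-treated ILC2s and 2 from ILC2s given 100 μM DCA, for 16 hours according to the deposited design text and 24 hours according to the methods. Nothing states whether the libraries of a treatment came from separate mice or cultures, so the p-values measure the spread between these libraries, which may be technical.

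Library totals were 35838342 and 26564059 counts in vehicle replicates 1 and 2 and 32102232 and 244165712 counts in DCA replicates 1 and 2, so DCA replicate 2 was far deeper than the other libraries. All 11 ILC2 markers on the list examined were expressed, with a summed level of 15653 to 17004 CPM under vehicle and 18108 to 20344 CPM under DCA. The higher sum came mostly from Il5 (8846 and 7707 CPM under vehicle, 9952 and 12358 CPM under DCA), whereas Klrg1 (682 ± 7.06 against 410 ± 74.8 CPM, SD, n = 2 each), Il1rl1 (853 ± 31.2 against 566 ± 45 CPM), and Areg (520 ± 14.1 against 344 ± 127 CPM) were lower in both DCA libraries, each with an adjusted p of 0.999 in edgeR's test (unadjusted, 0.0154, 0.0229, and 0.0868). Il2ra (1072 and 1228 CPM under vehicle, 1613 and 1588 CPM under DCA), Il7r (373 and 350 against 582 and 462 CPM), and Icos (3475 and 3315 against 3582 and 3502 CPM) were higher in both DCA libraries. Their adjusted p was also 0.999 in edgeR's test (unadjusted, 0.0459, 0.0531, and 0.748). Gata3, Rora, Il17rb, and Il13 overlapped between treatments. Plasma cells, which are rich in ER chaperones, were judged by 6 markers. Of these, Tnfrsf17 and Mzb1 had no counts in any library, and the summed level of all 6 was 161 to 215 CPM under vehicle and 130 to 173 CPM under DCA, nearly all of it from Prdm1 and Irf4. Markers without a count in any library included Cd4 and Cd8a of T cells, Pax5 of B cells, Csf1r of monocytes and macrophages, Fcer1a and Ms4a2 of mast cells, and Il22 of ILC3s. Other markers of these cells had counts. Cd79b of B cells was at 55 and 47.1 CPM under vehicle and 37.4 and 44.6 CPM under DCA, and Trac of T cells at 6.11 and 7.97 CPM against 5.75 and 4.66 CPM, both lower in each DCA library. Mcpt8 of basophils was at 3.49 to 4.61 CPM in 3 libraries and at 0 in DCA replicate 2, and Il17a was counted in DCA replicate 1 alone, 48 times. The summed level of the 5 macrophage and monocyte markers, almost all from Cd68, was 23.9 to 24.6 CPM under vehicle and 7.30 to 10.2 CPM under DCA, and the part of these other cells in the results below was not tested.

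Secretory and membrane proteins enter the ER unfolded. BiP, the HSP70 of the ER encoded by Hspa5, binds them with the help of J-domain partners and exchange factors, GRP94 (Hsp90b1) acts on a narrower set of clients, and calreticulin and calnexin (Calr and Canx) hold glycoproteins by their sugar chains. When unfolded proteins accumulate, the unfolded protein response is set off by IRE1, PERK, and ATF6, and the transcription factors ATF6 and XBP1 raise chaperone genes through a promoter sequence called the ER stress response element (ERSE). Cells that secrete much protein, such as plasma cells and cytokine-releasing lymphocytes, depend on these genes.

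The ERSE is written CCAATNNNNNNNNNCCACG, a CCAAT box, 9 free bases, and CCACG, and a shorter form, ERSE-II, is ATTGG, 1 free base, and CCACG, where ATTGG is the CCAAT box read on the other strand. Both were searched on both strands in RefSeq promoter windows of the GRCm38.p6 assembly, which run from 250 bases before to 50 bases after each transcription start. Windows were found for 8 of the 10 genes, all but Hyou1 and Manf. An exact ERSE was present in 6 of these 8 genes, Hspa5, Hsp90b1, Calr, Canx, Dnajc3, and Creld2, and in 39 of all 32851 windows (0.119%). ERSE-II was found for Dnajb11 and in 12 of all windows (0.0365%). The sites are shown because they are the sequence that most of these chaperone genes share. Each is printed 5′ to 3′ on the strand of its gene with 5 flanking bases on each side, and capitals mark the fixed bases of the motif, which appear as CGTGG and ATTGG where the element lies on the opposite strand.
Hspa5, chr2:34772020-34772048, plus strand: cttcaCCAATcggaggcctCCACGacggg
Hsp90b1, chr10:86705633-86705661, minus strand: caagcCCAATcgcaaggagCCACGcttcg
Hsp90b1, chr10:86705528-86705556, minus strand: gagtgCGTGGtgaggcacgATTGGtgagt
Calr, chr8:84847070-84847098, minus strand: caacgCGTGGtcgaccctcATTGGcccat
Canx, chr11:50325795-50325823, minus strand: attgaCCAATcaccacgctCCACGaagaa
Dnajc3, chr14:118937822-118937850, plus strand: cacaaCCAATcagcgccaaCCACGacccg
Creld2, chr15:88819515-88819543, plus strand: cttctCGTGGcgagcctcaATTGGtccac
Dnajb11 (ERSE-II), chr16:22857847-22857867, plus strand: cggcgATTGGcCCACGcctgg

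The ERSE nearest to a start was that of Hspa5, 47 to 65 bases upstream. Hsp90b1 was the one gene of the 8 with a pair of elements, 89 to 107 bases and 194 to 212 bases upstream, on opposite strands. The elements of Dnajc3, Creld2, Canx, and Calr lay in that order at increasing distance, from 87 bases for the nearest edge in Dnajc3 to 162 bases for the farthest edge in Calr. The ERSE-II of Dnajb11 lay downstream of its start, at bases 8 to 18 of the transcribed sequence. Sdf2l1 had neither element in its window. Its closest stretch differed from the ERSE in 2 of the 10 fixed bases, which is as close as 17.9% of all windows come. A CCAAT box alone was in 37.4% and CCACG alone in 32.8% of all windows, on either strand, and each was in 8 of the 8 chaperone windows. A match describes the letters of the window and does not show that a factor binds there.

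**Figure D1:**
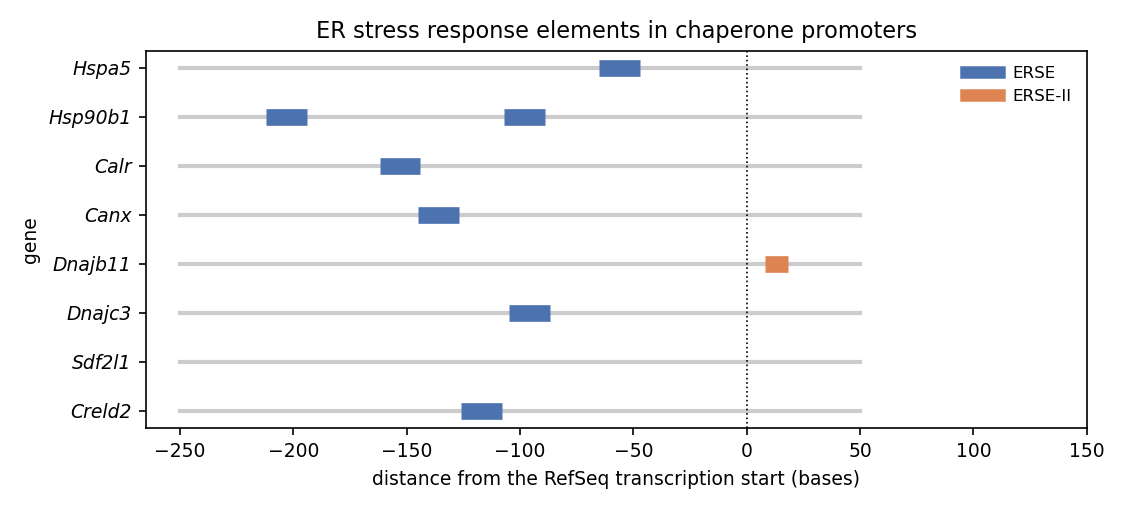
Positions of exact ERSE and ERSE-II matches in the promoter windows of the 8 chaperone genes with a RefSeq window, in bases from the transcription start (dotted line); grey lines are the windows searched and colored boxes the elements. The element of Hspa5 sits 47 to 65 bases upstream, Hsp90b1 carries a pair, Dnajb11 has its ERSE-II just after the start, and Sdf2l1 has none.

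The 10 genes were read deeply enough to place each in an order. They took 236103 and 162402 counts in the vehicle libraries and 183569 and 1446413 counts in the DCA libraries, and the lowest count of any of them in any library was 715, for Hyou1 in vehicle replicate 2. Levels were compared between genes as CPM per kilobase of transcript. Over the 4 libraries, mean levels per kilobase were 688 for Hsp90b1, 613 for Hspa5, 260 for Manf, 243 for Sdf2l1, 154 for Dnajb11, 148 for Calr, 135 for Canx, 126 for Creld2, 37.8 for Dnajc3, and 6.84 for Hyou1. The range from the first to the last was 101-fold. By the same measure Hsp90b1 was above 98.8% of the tested genes with a known length, Creld2 above 92.4%, Dnajc3 above 78.3%, and Hyou1 above 45.2%.

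Breaks in the order were clear at 4 of its 9 steps, between Hspa5 and Manf, Sdf2l1 and Dnajb11, Creld2 and Dnajc3, and Dnajc3 and Hyou1, where the library ranges did not overlap. At the other 5 steps they overlapped. Hsp90b1 was nevertheless above Hspa5 within each of the 4 libraries, by 1.04 to 1.18 times. Hspa5 overlaps Rabepk on the other strand, and what this did to its count and to this order was not tested. Manf was above Sdf2l1 in 3 of the 4 libraries, with DCA replicate 1 the exception. Calr and Canx, the soluble and the membrane-bound lectin chaperone, stood close together, with Calr higher in 4 of 4 libraries by 1.02 to 1.33 times per kilobase. The order within the middle of the list depended on the transcript length used. With the union of all annotated exons in place of the RefSeq-matched transcript, Sdf2l1 moved above Manf and Creld2 moved from rank 8 to rank 5, whereas Hsp90b1, Hspa5, Dnajc3, and Hyou1 kept their ranks.

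**Figure D2:**
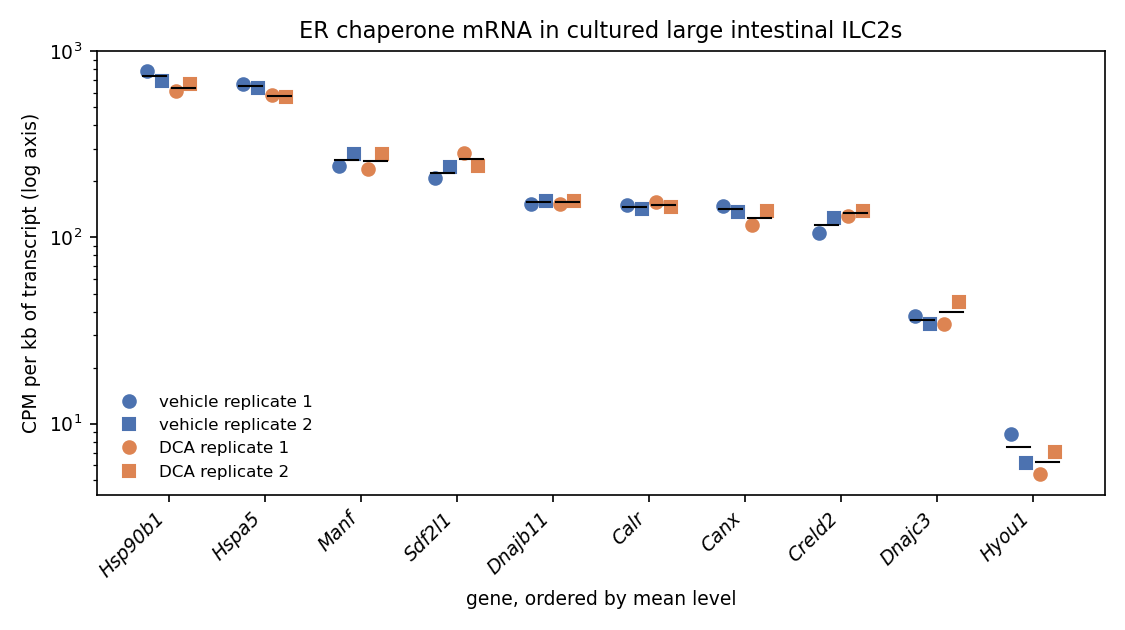
Level of each chaperone gene in CPM per kilobase of transcript (log axis) in the 2 vehicle libraries (blue) and the 2 DCA libraries (orange), with circles for replicate 1, squares for replicate 2, and bars for treatment means. Hsp90b1 and Hspa5 lie between 569 and 784, 6 genes lie between 106 and 284, and Dnajc3 and Hyou1 lie lower, with vehicle and DCA points close together for each gene.

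The question of the comparison was whether the RNA of these chaperones changed when ILC2s were given DCA. None of the 10 genes passed the test, and each of the 10 estimates from all libraries lay within 0.3 of 0 on the log2 scale, although with 1 library left out they reached -0.51 (Hyou1) and 0.35 (Sdf2l1). In edgeR's quasi-likelihood test, 0 of the 10 genes had an adjusted p under 0.05, as had 0.0% of the 11184 genes tested, and 0 of the 10 had an unadjusted p under 0.05, against 4.27% of all genes. With DESeq2 and limma the count was also 0 of 10, adjusted and unadjusted. The DCA estimate was above vehicle for 4 of the 10 genes (50.7% of all genes tested) and below it for 6 (49.3%). Sdf2l1 and Creld2 were higher in each DCA library than in either vehicle library, 2 of 10 genes (18.8% of all genes were), and Hspa5 and Hsp90b1 were lower in each, also 2 of 10 (14.5%), so 4 of 10 did not overlap, where 33.4% of all genes did not. In bulk RNA, fewer cells of a type and less RNA per cell cannot be told apart.

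BiP is the central HSP70 of the ER lumen. Hspa5 (Entrez gene 14828, chromosome 2 from 34772090 to 34776529, plus strand, GRCm38) was at 1735 and 1663 CPM under vehicle and at 1524 and 1487 CPM under DCA. Both DCA libraries were below both vehicle libraries, and the libraries of a treatment lay close together, 0.061 apart on the log2 scale under vehicle and 0.036 under DCA. The log2 fold change of Hspa5 was -0.18 (standard error 0.18, 95% confidence interval -0.62 to 0.26), with an adjusted p of 0.999 (unadjusted, 0.360) in edgeR's quasi-likelihood test. On the side of a rise the interval ended at 1.20-fold in this fit, which is not a ceiling, since it rests on 2 libraries against 2. Hspa5 overlaps the end of Rabepk on the other strand over 1921 bases, and the strand setting of the counting is not stated. Rabepk was at 41.6 and 70.9 CPM under vehicle and 63.4 and 41.8 CPM under DCA. What the overlap did to the count of Hspa5 was not tested.

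Several members work on BiP directly. Dnajb11 (ERdj3, chromosome 16 from 22857845 to 22879634, plus strand) is a soluble J-domain protein that hands clients to BiP. Its RNA was at 382 and 396 CPM under vehicle and 381 and 394 CPM under DCA. The treatments overlapped almost completely, with a log2 fold change of -0.0091 (interval -0.49 to 0.48). Dnajc3 (p58IPK, chromosome 14 from 118937932 to 118981702, plus strand), a J-domain protein also known as an inhibitor of PERK, was at 194 and 176 CPM under vehicle and 176 and 231 CPM under DCA. DCA replicate 1 matched the lower vehicle library and DCA replicate 2 exceeded both. The log2 fold change of Dnajc3 was 0.13 (interval -0.46 to 0.72), and without DCA replicate 2 it was -0.071. RefSeq places a pseudogene, Gm4678, over part of Dnajc3 and a long noncoding RNA, Gm30505, over part of Dnajb11, and neither was among the genes counted.

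Hyou1 and Sdf2l1 are the members at the ends of the range of change. Hyou1 (GRP170, chromosome 9 from 44379490 to 44392369, plus strand) is a large HSP70 relative that exchanges nucleotide on BiP. It was at 39.2 and 27.3 CPM under vehicle and 23.7 and 31.2 CPM under DCA. The treatments overlapped, and the vehicle libraries differed from each other by 0.52 on the log2 scale, more than the log2 fold change of -0.28 between treatments. The standard error was 0.43 and the interval, the widest of the 10, ran from -1.31 to 0.75. The value was -0.020 without vehicle replicate 1 and -0.51 without vehicle replicate 2.

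Sdf2l1 (chromosome 16 from 17130138 to 17132383, minus strand) encodes a small partner that binds ERdj3 and works with BiP. Its level was 231 and 263 CPM under vehicle and 315 and 269 CPM under DCA. Each DCA value exceeded each vehicle value, though DCA replicate 2 exceeded vehicle replicate 2 only slightly. The log2 fold change was 0.23 (standard error 0.22, interval -0.31 to 0.77), with an adjusted p of 0.999 (unadjusted, 0.332) in edgeR's test. Leaving out DCA replicate 1 gave 0.11, and leaving out DCA replicate 2 gave 0.35.

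GRP94, the HSP90 of the ER, folds integrins and Toll-like receptors among other clients. Hsp90b1 (Entrez gene 22027, chromosome 10 from 86690841 to 86705444, minus strand) was at 2214 and 1965 CPM under vehicle and at 1719 and 1881 CPM under DCA, the highest CPM of the 10 genes in every library. The highest DCA library was below the lowest vehicle library. The log2 fold change was -0.22 (standard error 0.19, interval -0.67 to 0.23), with an unadjusted p of 0.283 in edgeR's test, the smallest of the 10 genes, and an adjusted p of 0.999. Left out in turn, the libraries gave values from -0.30 to -0.16.

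The lectin chaperones take up glycoproteins after glucose trimming. Calr (chromosome 8 from 84842088 to 84846931, minus strand) was at 328 and 309 CPM under vehicle and 338 and 317 CPM under DCA. The treatments overlapped, and the log2 fold change of 0.037 (interval -0.46 to 0.53) was smaller than the difference between replicates of either treatment. Canx (chromosome 11 from 50293957 to 50325673, minus strand) was at 628 and 586 CPM under vehicle and 497 and 597 CPM under DCA. DCA replicate 1 was the lowest library and DCA replicate 2 lay between the vehicle libraries. The log2 fold change of Canx was -0.15 (interval -0.66 to 0.35), and without DCA replicate 1 it was -0.035.

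Manf and Creld2 encode ER proteins that can also be secreted, and both are known as genes raised by ER stress. Manf (chromosome 9 from 106888753 to 106891938, minus strand), a BiP-binding factor first described as neurotrophic, was at 547 and 630 CPM under vehicle and 524 and 631 CPM under DCA. In each treatment replicate 2 was the higher library, the DCA range enclosed the vehicle range, and the log2 fold change was -0.031 (interval -0.55 to 0.49). Creld2 (chromosome 15 from 88819646 to 88826681, plus strand), an EGF-domain protein of the ER, was at 145 and 175 CPM under vehicle and 178 and 190 CPM under DCA. Here too the treatments did not overlap and DCA was the higher, DCA replicate 1 by a narrow margin over vehicle replicate 2. The log2 fold change of Creld2 was 0.20 (standard error 0.23, interval -0.36 to 0.76), with an adjusted p of 0.999 (unadjusted, 0.421) in edgeR's test. Without vehicle replicate 1 it was 0.044, and without vehicle replicate 2 it was 0.34.

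**Figure D3:**
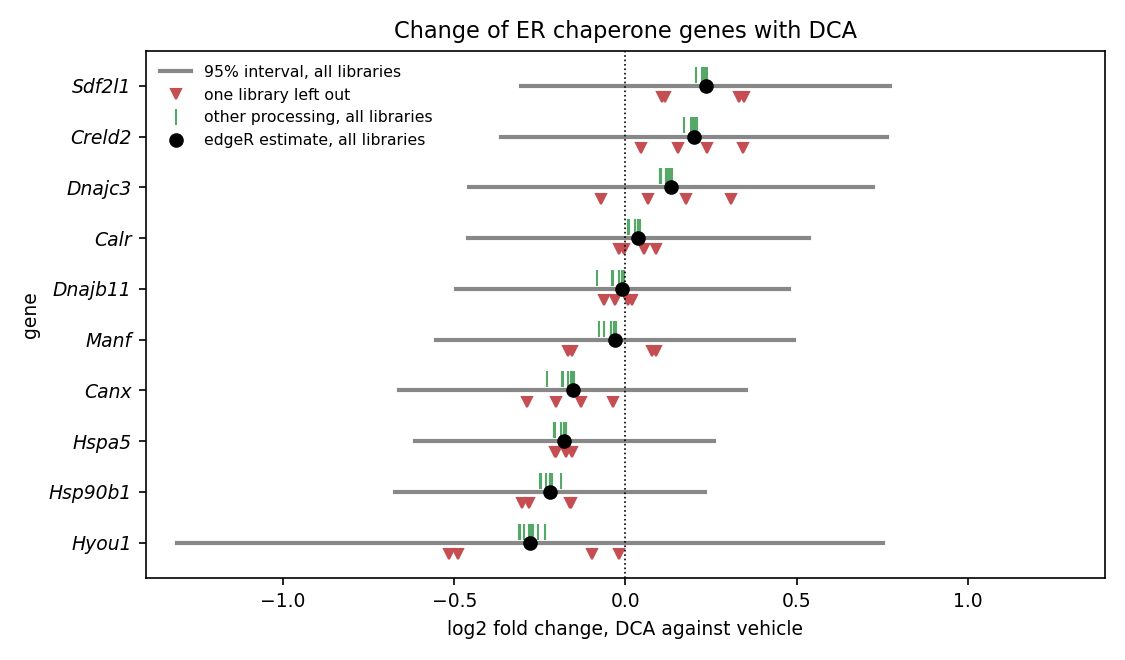
Log2 fold change of each chaperone gene with DCA against vehicle, with black points for the edgeR estimate from all 4 libraries, grey bars for its 95% confidence interval, green ticks for other processing of all 4 libraries, and red triangles for fits with 1 library left out. Every interval covers 0, the estimates run from -0.28 for Hyou1 to 0.23 for Sdf2l1, and leaving out a library moves most estimates more than other processing does.

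Set against the replicates, the difference between treatments exceeded the difference within both treatments for 3 of the 10 genes, Hspa5, Hsp90b1, and Sdf2l1, and for 19.9% of all genes tested. The median log2 fold change of the 10 genes was -0.020, beside 0.0080 over all genes tested. The median size of change, sign set aside, was 0.17 for the 10 genes and 0.38 for all genes. All 10 estimates were within 0.3 of 0, a window set after they were seen, as were 42.0% of the genes tested. The chaperone genes were also measured more tightly than most, with a median distance from estimate to interval end of 0.52 on the log2 scale, against 1.27 for all genes, so the smaller changes and the smaller errors came together. For each of the 10 genes the interval ended at a fold of 1.71 or less on the side of a rise.

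Summed over the 10 genes, the level was 6443 and 6190 CPM under vehicle and 5676 and 6028 CPM under DCA. Both DCA libraries were below both vehicle libraries. The means were 6316 ± 179 CPM (SD, n = 2) with vehicle and 5852 ± 249 CPM (SD, n = 2) with DCA, with p = 0.333 in a two-sided exact permutation test, the smallest p that 2 libraries against 2 allow. As a share of all counts, the 10 genes took 0.659% and 0.611% of the vehicle libraries and 0.572% and 0.592% of the DCA libraries.

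The make-up of the chaperone reads was compared next, since shares within a library do not depend on how libraries are scaled to each other. Hspa5 and Hsp90b1 together took 61.3% and 58.6% of the chaperone reads with vehicle and 57.1% and 55.9% with DCA. Both DCA libraries were below both vehicle libraries (60.0 ± 1.9% against 56.5 ± 0.899%, SD, n = 2 each; two-sided exact permutation p = 0.333, the smallest possible), and the difference was -3.45 percentage points. Leaving out each library in turn gave -4.79 to -2.11 points, smallest in size without vehicle replicate 1. Hspa5 and Hsp90b1 are the genes already seen to be lower in each DCA library, so their lower joint share is not separate support. Reads of Sdf2l1 made up 3.59% and 4.25% with vehicle and 5.54% and 4.46% with DCA. Creld2 made up 2.25% and 2.82% with vehicle and 3.13% and 3.16% with DCA. Calr, Dnajb11, and Dnajc3 also had higher shares in both DCA libraries, by 0.57, 0.46, and 0.54 points on average. Each of these 5 shares leaned on 1 library, since the difference was 0.54 points for Sdf2l1 and 0.22 for Calr without DCA replicate 1, 0.32 for Creld2 and 0.23 for Dnajb11 without vehicle replicate 1, and 0.18 for Dnajc3 without DCA replicate 2. The shares of Canx, Manf, and Hyou1 overlapped between treatments. Shares sum to a fixed total, so a lower share of the most abundant genes makes the other shares higher.

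The same counts were also expressed per read of Hspa5, a set of ratios chosen after the levels had been seen. These ratios restate the shares and are not a second observation. For every 100 Hspa5 reads there were 13.3 and 15.8 Sdf2l1 reads with vehicle and 20.6 and 18.1 with DCA. Per 100 Hspa5 reads, Creld2 had 8.35 and 10.5 reads with vehicle and 11.7 and 12.8 with DCA. In both genes the DCA libraries were above the vehicle libraries, with ratios of treatment means of 1.33 and 1.30. Calr (18.9 and 18.6 against 22.2 and 21.3), Dnajb11 (22 and 23.8 against 25.0 and 26.5), and Dnajc3 (11.2 and 10.6 against 11.6 and 15.5) were likewise higher per 100 Hspa5 reads in both DCA libraries. Hsp90b1, Canx, Manf, and Hyou1 overlapped. Hspa5 itself was lower in both DCA libraries, so a gene with a flat level rises per Hspa5 read. Calr and Dnajb11, with log2 fold changes of 0.037 and -0.0091, were close to flat. The share of all genes tested that is higher per Hspa5 read was not computed. Each non-overlapping ratio had an exact permutation p of 0.333, the smallest possible, and the 5 ratios share Hspa5 as their denominator, so they are not independent of each other. Between the lectin chaperones, Canx had 192 and 190 reads per 100 Calr reads with vehicle and 147 and 189 with DCA, a gap that rests on DCA replicate 1.

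**Figure D4:**
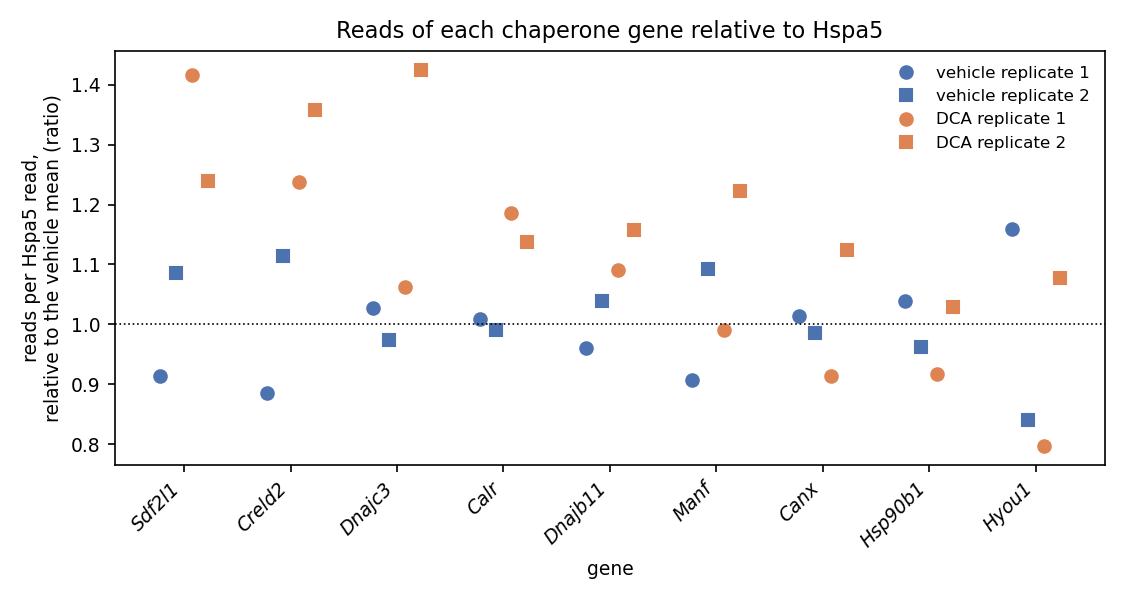
Reads of each chaperone gene per Hspa5 read in the same library, divided by the vehicle mean (dotted line at 1), with blue for vehicle, orange for DCA, circles for replicate 1, and squares for replicate 2. For Sdf2l1, Creld2, Dnajc3, Calr, and Dnajb11 both DCA points are above both vehicle points, and for Manf, Canx, Hsp90b1, and Hyou1 they overlap.

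The wider ER folding machinery was described with 5 further lists of genes, none of which had a member past an adjusted p of 0.05 in edgeR's quasi-likelihood test. Among ER cochaperones and folding factors, 23 of 28 genes were tested, and the median log2 fold change was 0.13. Of the 23, 2 had an unadjusted p under 0.05, against 4.27% of all genes, both in the direction of more RNA with DCA. The 2 genes were Clgn and Calr3, germ cell relatives of Canx and Calr. Without vehicle counts, both passed the filter through their DCA libraries alone. A rise was the only change that could be seen, so their p-values are no support for one. Clgn was without counts under vehicle (0 and 0) and had 545 and 576 counts under DCA, at least 98.1-fold higher when each vehicle library is set to the 3 counts that a count of 0 allows, and at least 24.5-fold by DCA replicate 2 alone (unadjusted p of 0.00490, edgeR). Calr3 had 115 and 774 counts under DCA and 0 in both vehicle libraries, at least 34.6-fold higher (unadjusted p of 0.0202, edgeR). That p was 0.102 without DCA replicate 1, 0.0804 without DCA replicate 2, 0.0653 with the replicate number as a block, and 0.0758 with quantile normalization. At 16.9 and 2.40 CPM for Clgn and 3.56 and 3.23 CPM for Calr3, both were far below Canx and Calr even with DCA. Without DCA replicate 1, Clgn fell below the filter and was not tested, so its test rests on that library. The list median is the same with these genes at their bounds.

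Partners of BiP on that list did not pass the test. Sil1, its exchange factor, was at 65.4 and 45.2 CPM under vehicle and 93.7 and 84.3 CPM under DCA. The DCA libraries were above the vehicle libraries, and the log2 fold change was 0.68 (unadjusted p of 0.0721, edgeR), or 0.44 without vehicle replicate 2. Of the J-domain proteins on the list, Dnajb9 at 0.45 and Sec63 at 0.50 also had both DCA libraries above both vehicle libraries (unadjusted p of 0.230 and 0.168, edgeR). Dnajc1, Dnajc10, and Dnajc25, at 0.55, -0.15, and -0.53, overlapped between treatments. Ppic, a cyclophilin that isomerizes proline bonds, was at 81.3 and 71.9 CPM under vehicle and 46.4 and 70.4 CPM under DCA, and it was the single gene of the list with both DCA libraries below both vehicle libraries. Sdf2, the close relative of Sdf2l1, was at 108 and 109 CPM under vehicle and 110 and 111 CPM under DCA. On this list 7 of the 23 genes were higher in each DCA library than in either vehicle library, against 18.8% of all genes. The 7 were Clgn, Calr3, Sil1, Dnajb9, Sec63, Tor1a, and, by a small margin, Sdf2. Clgn and Calr3 could only count as higher, since they passed the filter through their DCA libraries.

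Genes of the glycoprotein folding and lectin cycle, which feed and empty calnexin and calreticulin, were split evenly. Of 16 tested genes (17 listed), 8 had a log2 fold change above 0 and 8 below, the median was -0.00099, and 0 had an unadjusted p under 0.05. Mogs, the glucosidase that removes the first glucose, was at 51.0 and 53.7 CPM under vehicle and 25.8 and 33.5 CPM under DCA. Its DCA libraries were below its vehicle libraries, with a log2 fold change of -0.83 (unadjusted p of 0.0582, edgeR). Ganab, the catalytic chain of the next glucosidase, was at 114 CPM in both vehicle libraries and at 94.4 and 66.9 CPM under DCA, giving a log2 fold change of -0.50 (unadjusted p of 0.128, edgeR). Prkcsh, the partner chain of Ganab, overlapped between treatments at 98.9 and 98.2 CPM against 92.9 and 102 CPM. On the export side, Mcfd2, a cargo receptor subunit, had a log2 fold change of 0.55, and Edem2, a mannosidase that marks glycoproteins for disposal, one of 0.31, and for both the DCA libraries were above the vehicle libraries. Ganab was at -0.27 without DCA replicate 2, and Edem2 at 0.13 without DCA replicate 1.

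ER-associated degradation, which removes proteins that fail to fold, was represented by 21 tested genes of 23 listed. The median log2 fold change was 0.14, and 0 genes had an unadjusted p under 0.05. Without overlap between treatments, 7 of the 21 genes were higher and 4 lower under DCA, where 18.8% and 14.5% of all genes were. Vcp, the ATPase that pulls clients from the membrane, was at 593 and 567 CPM under vehicle and 846 and 696 CPM under DCA. The treatments did not overlap, and the log2 fold change was 0.41 (unadjusted p of 0.0981, edgeR). Ubxn4, a membrane anchor for Vcp, had a log2 fold change of 0.50, and Dnajb14, an ER membrane J-domain protein, one of 0.75. Syvn1 (HRD1), a ubiquitin ligase of the ER membrane, was at 64.0 and 32.3 CPM under vehicle and 28.2 and 28.5 CPM under DCA, a value of -0.77 that was -0.22 without vehicle replicate 1. Dnajb12, another J-domain protein of the ER membrane, at -0.96, and Ube2j1, a ubiquitin-conjugating enzyme, at -0.25, likewise had both DCA libraries below both vehicle libraries. Of these estimates, Vcp was 0.25 and Dnajb14 0.43 without DCA replicate 1, Ubxn4 0.30 without vehicle replicate 1, and Dnajb12 -0.25 without vehicle replicate 2.

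The list of sensors and transcription factors of the unfolded protein response, which holds the membrane sensors, the proteases that cut ATF6, and the factors that act on chaperone promoters, included 15 tested genes of 15 listed with a median log2 fold change of -0.0074. Xbp1 was at 387 and 344 CPM under vehicle and 372 and 357 CPM under DCA, and the DCA values lay inside the vehicle range. This count covers all Xbp1 RNA and does not separate the spliced form that IRE1 makes. Ern1, which encodes IRE1α, had a log2 fold change of -0.19, and Atf6 one of -0.48 (-0.061 without vehicle replicate 1), and both overlapped between treatments. Eif2ak3, which encodes PERK, was at 14.0 and 30.8 CPM under vehicle and 4.21 and 4.76 CPM under DCA, giving a log2 fold change of -2.32 (unadjusted p of 0.0159, edgeR). Ddit3, which encodes CHOP, was at 8.95 and 9.87 CPM under vehicle and 25.2 and 43.8 CPM under DCA, giving a log2 fold change of 1.87 (unadjusted p of 0.0113, edgeR). Their adjusted p was 0.999 for each in edgeR's test, and over the other fits it ran from 0.0249 to 1 for Eif2ak3 and from 0.0225 to 1 for Ddit3, lowest with DESeq2. The unadjusted p of Ddit3 was 0.161 without DCA replicate 2, and that of Eif2ak3 was 0.0961 without vehicle replicate 2, 0.0796 without DCA replicate 1, and 0.0715 without DCA replicate 2. Atf6b and Creb3, at 0.99 and 0.59, had DCA libraries above vehicle libraries (Atf6b was at 0.36 without DCA replicate 1), and Nfyc, a subunit of the factor that binds the CCAAT box, at -0.22, had them below.

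**Figure D5:**
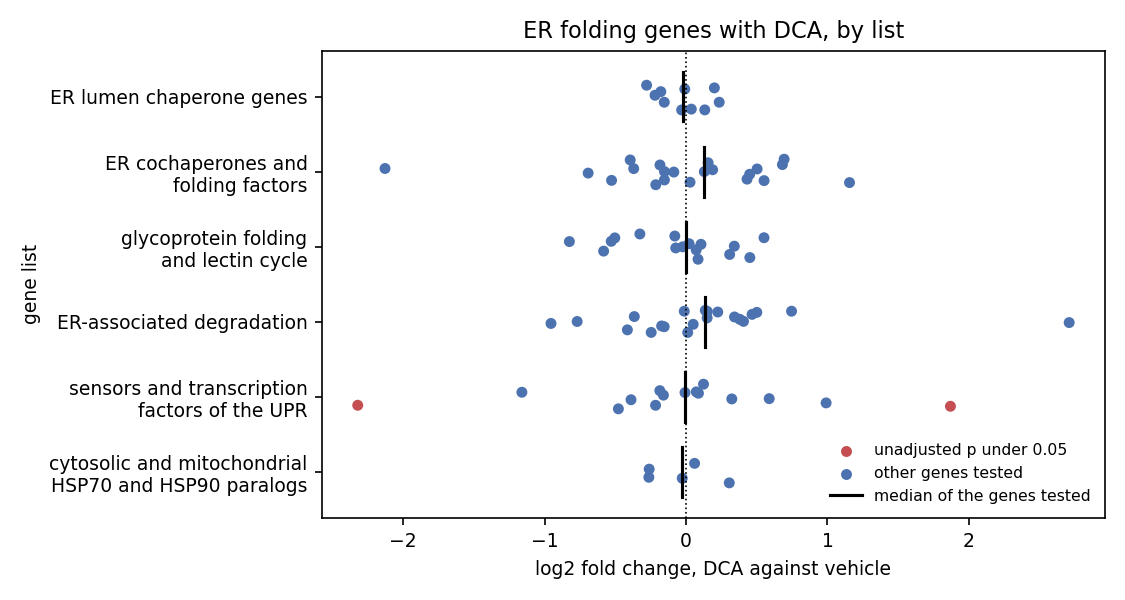
Log2 fold change with DCA against vehicle for every tested gene of the ER lumen chaperone list and the 5 further lists, with red for an unadjusted p under 0.05 in edgeR's test, blue for the others, and black bars for the median of the genes tested. The 10 chaperone genes lie between -0.28 and 0.23, and their cytosolic and mitochondrial relatives between -0.26 and 0.31. The remaining lists reach further to both sides. Clgn and Calr3, with no vehicle counts, are not drawn but are included in the median of their list.

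Relatives of BiP and GRP94 outside the ER served as a comparison. Hspa8, the constitutive cytosolic HSP70, was at 4484 and 5321 CPM under vehicle and 4918 and 4733 CPM under DCA. The DCA values lay inside the vehicle range, and the log2 fold change was -0.027. Hsp90ab1, the constitutive cytosolic HSP90, was at 2733 and 2827 CPM under vehicle and 3391 and 3502 CPM under DCA. Its DCA libraries were above its vehicle libraries, with a log2 fold change of 0.31 (unadjusted p of 0.122, edgeR), where Hsp90b1 of the ER was at -0.22. The difference between the 2 genes was not tested. Hsp90aa1, the inducible HSP90, overlapped between treatments at 0.060, and the mitochondrial relatives Hspa9 and Trap1 were each at -0.26, with Trap1 overlapping and both Hspa9 DCA libraries below its vehicle libraries (-0.17 without DCA replicate 2).

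Other genes that carry an exact ERSE in their promoter window gave a further view of the element, chosen after the chaperone values had been seen. Of the 26 such genes in the count table, 10 were expressed enough to be tested. Their median log2 fold change was -0.046, with 4 above 0 and 6 below and 0 at an unadjusted p under 0.05. The 6 chaperone genes with an ERSE had a median of -0.059, with 3 above 0 and 3 below. Alg12, among the 10 other genes, starts 328 bases from Creld2 on the other strand. Whether its window holds the same element as that of Creld2 was not checked. Pdia6, a disulfide isomerase with the element, was at 937 and 1077 CPM under vehicle and 970 and 976 CPM under DCA, inside the vehicle range.

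Some chaperone genes have a neighbor with an annotated start close by on the other strand, and whether they share a promoter was not tested. Genes that start on the other strand within 1 kb were Ttc41 (367 bases from Hsp90b1), 1700122E12Rik (216 bases from Calr), Tbccd1 (150 bases from Dnajb11), and Alg12 (328 bases from Creld2), the last of which encodes a mannosyltransferase that builds the sugar chain of glycoproteins. All of them were far below their chaperone neighbors. Alg12 was at 36.4 and 15.2 CPM under vehicle and 17.7 and 27.0 CPM under DCA, and Tbccd1 at 49.5 and 20.8 CPM under vehicle and 17.7 and 29.8 CPM under DCA. Both overlapped between treatments, with vehicle replicate 1 the highest library, a pattern that Creld2 and Dnajb11 did not have. 1700122E12Rik was detected in DCA replicate 2 alone, with 88 counts.

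Among 3786 other genes whose mean was 50 CPM or more, those whose pattern over the 4 libraries was nearest to the mean pattern of the 10 chaperone genes were Rnmt, Prkcsh, and Zmat5. Their root-mean-square differences from that mean were 0.0089, 0.0093, and 0.023 on the log2 scale. The mean pattern itself was nearly flat, lowest in DCA replicate 1 at -0.072 and highest in DCA replicate 2 at 0.050 relative to the mean of the 4 libraries on the log2 scale, so likeness over 4 libraries describes little more than flat expression.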

How the data were processed

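RNA-Seq of mouse ILC2s, with 2 vehicle and 2 DCA libraries, was analysed from the deposited table of read counts. The authors prepared SMART-Seq HT cDNA and Nextera XT paired-end libraries, used Cutadapt 1.9 as the read filter and HISAT2 2.2.1 as the aligner, with mm10 as the genome. The counting tool, its annotation, and its strand setting are not given in the sources used here. The deposited values are whole-number counts, although the table is named for FPKM. Rows without a symbol (1275, holding 0.137% to 0.173% of a library) were kept under their identifiers.

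Libraries were grouped by their labels. Counts were scaled to CPM by TMM and compared with edgeR 4.0.16 in R 4.3.3 (two-sided quasi-likelihood test, with Benjamini-Hochberg adjustment across 11184 genes whose mean was 1 CPM or more). Standard errors were worked back from the test, as the size of the log2 fold change divided by the square root of the F statistic. Intervals are 95% intervals from these errors and a t quantile, and are approximate. The log2 scale of the fit is used throughout. A count of 0 was set to 3 counts per library for bounds. Bounds and intervals cover amplified reads, which are not independent molecules. Levels per kilobase used the longest annotated transcript matched to RefSeq. Shares were compared by exact permutation over libraries.

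The chaperone genes and the lists were chosen with earlier results of these data known. Named genes were the 10 chaperone genes, in each list up to 3 per direction with the smallest unadjusted p and no overlap between treatments, the sensors with Xbp1, the cytosolic and mitochondrial relatives, neighboring genes, and the 3 genes nearest in pattern. Sdf2, Prkcsh, Pdia6, Dnajb9, Sec63, Dnajc1, Dnajc10, Dnajc25, Tor1a, Derl3, and Xlr3b were named after values were seen. The window of 0.3 on the log2 scale was also set after values were seen.

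Alternatives were DESeq2 1.42.0, limma 3.58.1 on log2(CPM + 1), total-count scaling, median-of-ratios scaling, quantile normalization, no filter, a mean of at least 5 CPM, DCA replicate 2 thinned to 32096215 counts, the replicate block, other share denominators, and leaving out each library. Other experiments of the study were not analysed here.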

Additional observations from a re-analysis of the deposited data

How the results depend on the processing

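Over 9 alternatives with all libraries and 4 fits with 1 library left out, 0 of the 10 chaperone genes had an adjusted or unadjusted p under 0.05, and the smallest p of any was 0.188 (Hsp90b1, DESeq2), although the genes called over the whole table went from 0 to 253 with DESeq2, 36 without a filter, and 20 without vehicle replicate 1. Among the further lists, 4 genes passed an adjusted p of 0.05 with DESeq2 (Clgn, Calr3, Ddit3, Eif2ak3) and 1 without a filter (Clgn), and 0 under the other fits. The median of the 10 genes ran from -0.11 to 0.0073 with 1 library left out, lowest without DCA replicate 2. Same-numbered libraries did not deviate together (r = 0.0197 across genes). Whether they shared a mouse or culture is not stated, and r over 2 libraries per treatment cannot settle it. With the replicate number as a block, edgeR put 450 genes below an unadjusted p of 0.05, against 478 without the block. Hspa5 was then at -0.18, Hsp90b1 at -0.22, and Sdf2l1 at 0.23. No call at an adjusted p of 0.05 changed, whereas Calr3 went from an unadjusted p of 0.0202 to 0.0653 (edgeR). Only Ttc41 changed sign with the block (0.17).

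With libraries left out, the estimates below changed sign, none of them past an unadjusted p of 0.05 with all libraries. Ranges were -0.018 to 0.088 for Calr, -0.061 to 0.018 for Dnajb11, -0.17 to 0.088 for Manf, and -0.071 to 0.31 for Dnajc3. Among other genes they were -0.70 to 0.53 for Alg12, -0.42 to 0.065 for Ern1, -0.22 to 0.29 for Hsp90aa1, -0.17 to 0.10 for Hspa8, -0.46 to 0.33 for Rabepk, -1.06 to 0.16 for Tbccd1, -0.55 to 0.062 for Trap1, -1.67 to 2.03 for Ttc41, and -0.089 to 0.054 for Xbp1. The cause was not tested. Each chaperone gene had at least 715 counts in every library. With 2 libraries against 2, the exact permutation test cannot go below 0.333.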
